A study of Mus musculus with 4 samples.

Results

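The cells described here are the mesothelial cells recovered from the gonadal white adipose tissue of 18-month-old male mice, 966 of the 14982 cells kept. A barcode was kept with over 1000 and under 7000 detected genes and under 8% of its unique molecular identifiers (UMIs, the counted RNA molecules) from mitochondrial genes. A kept cell was taken as mesothelial with at least 6 UMIs of Upk3b and Msln together, at least 3 of Krt19, Krt8 and Krt18 together, at most 1 of Ptprc and at most 4 of Cxcl13. The choice therefore rests on measured values, and the levels of these 7 genes are given only as a description.

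All mice carried p16-CreERT2 with R26-LSL-tdTomato, so that a cell whose p16 (Cdkn2a) promoter was active while tamoxifen was given, and every descendant of that cell, makes tdTomato. All had received tamoxifen daily for several days and were taken about 2 weeks later. The stromal vascular fraction was freed with Liberase TM, cleared of red blood cells, stained for CD31 and CD45, and sorted by CD45 and tdTomato into 4 libraries, labelled CD45- with and without tdTomato (Tom+ and Tom-) and CD45+ likewise. Each group is 1 library, the number of mice behind it is not given in the labels, and no untreated or young group was among the samples, so no difference between groups has a replicate check and none was tested.

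Mesothelium is the single layer of flat epithelial cells that lines the body cavities and the organs in them, including the surface of the visceral fat depots. It derives from mesoderm, keeps both keratins and mesenchymal genes, and is known for making a lubricating surface of mucin and hyaluronan, for controlling fibrin on the serosa, for releasing complement and chemokines, and for turning into matrix-producing cells after injury. WT1 is the transcription factor that marks it in development, and mesothelin (Msln) and mucin 16 (Muc16, also known as CA125) are surface proteins that bind each other.

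The CD45 label did not separate these cells. The library labelled CD45- Tom+ held 99 mesothelial cells among 4145 kept (2.39%, 95% exact binomial interval 1.95 to 2.90%) and the library labelled CD45+ Tom+ held 46 among 1981 (2.32%, 1.70 to 3.09%). The library labelled CD45- Tom- held 411 among 4038 (10.2%, 9.26 to 11.2%) and the library labelled CD45+ Tom- held 410 among 4818 (8.51%, 7.74 to 9.33%). The share was thus nearly the same at either CD45 label and lower in both libraries labelled Tom+ than in either labelled Tom-. The rule itself asked for nearly no Ptprc, the gene of CD45. A share can also move with what else the sort put into a library, and all intervals here cover counting error only.

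Libraries also shared cell barcodes. Both libraries labelled Tom- had 4394 barcodes in common, against 26 to 1134 for the other 5 pairs of libraries. The deeper copy of a shared barcode held a median of 32928 UMIs in that pair and the shallower copy 722, and only 12 of these barcodes were kept in both. Of the 411 and 410 mesothelial cells of these libraries, 290 and 243 had a barcode that the other library also listed, and no barcode was mesothelial in both. Without every barcode listed in more than 1 library, the share was 5.04% in each of the libraries labelled Tom-, and 8 genes in place of 14 stood at least 2-fold higher in Tom+ at both CD45 labels.

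The mesothelial cells were deep cells. Their median was 29878, 31252, 36236 and 31573 UMIs per cell, against 18587 to 20241 over all kept cells, in the library order used from here on, which is the 2 libraries labelled CD45- (Tom+, then Tom-) followed by the 2 labelled CD45+ (Tom+, then Tom-). The median cell had 5725 to 6192 detected genes. Because the upper limit of 7000 genes lay close above this, 277 further barcodes met the marker conditions with more genes and were left out, 44, 87, 17 and 129 in the same order. Doublet calls from simulated pairs of cells marked 6, 16, 0 and 18 of the mesothelial cells, and these were kept. At the edge of the rule, 5, 8, 2 and 5 cells had exactly 6 UMIs of Upk3b and Msln, and 2, 3, 1 and 4 further cells missed the rule by 1 such UMI. The median cell held 27 to 39 of these UMIs.

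**Figure D1:**
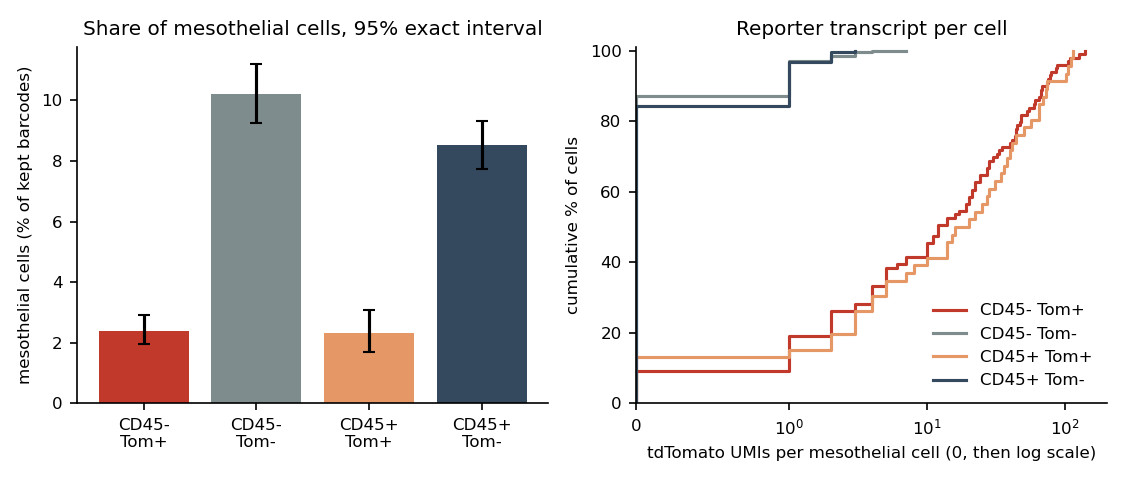
Left, mesothelial cells as a percent of the kept cells of each library, with 95% exact binomial intervals. Right, the cumulative percent of mesothelial cells against their tdTomato UMIs (0, then a log scale), where 9.09% of the cells labelled CD45- Tom+ and 87.1% of those labelled CD45- Tom- lie at 0.

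The 20 leading genes, those with the highest ratio over all other kept cells, were the genes of a mesothelial lining. Levels are CPM, the UMIs of a gene when all UMIs of the mesothelial cells of a library are scaled to 1000000, and they are not divided by gene length because the kit counts 3′ ends. For comparison, adipose progenitors were taken as kept cells with at least 2 UMIs of Pdgfra and 10 of Dcn and few of other lineages, 3775 cells in all. Of the rule's genes, Upk3b, a uroplakin of the apical membrane on chromosome 5 (5:136038496-136046487, GRCm38), stood at 716, 945, 843 and 914 CPM, Msln (17:25748613-25754378) at 348, 551, 418 and 556 CPM, and Krt19, a keratin of simple epithelium, at 473, 618, 470 and 644 CPM. These levels are fixed in part by the choice of cells.

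Genes that the rule did not use followed the same pattern. Muc16, on chromosome 9 (9:18495455-18674530), stood at 176, 290, 224 and 274 CPM, and its mean of 241 CPM compares with 0.258 CPM in adipose progenitors. Krt7, another simple keratin, had a mean of 147 CPM against 0.281. The second uroplakin Upk1b had 411 CPM against 2.08, the water channel gene Aqp5 had 124 against 1.80, and Lrrn4, a leucine-rich repeat membrane protein, had 505 against 15. Prg4, which encodes the lubricant lubricin, had 382 CPM against 11.4. Igfbp5, an IGF-binding protein, had 2901 CPM against 98.1, and the growth factor gene Fgf1 had 771 against 17.0. Wt1 (2:105126529-105173616) was detected in 99.0 to 100% of the cells at 452, 525, 434 and 520 CPM. It was less particular to these cells, since adipose progenitors had 216, 196, 258 and 201 CPM. In progenitors Wt1 was detected in 78.7 to 83.4% of the cells. The leading genes among these were picked for their ratio in these same cells, so their excess is a description and not a check of the label. A list of 14 mesothelial markers beside the rule, chosen with earlier results of these data known, was high as well. All 14 stood more than 2-fold over other kept cells and 13 more than 2-fold over adipose progenitors.

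These cells also carried mesenchymal genes, most of them at lower levels than adipose progenitors. Dcn, the collagen-binding proteoglycan decorin, stood at a mean of 13501 CPM against 12286 in progenitors. A list of mesothelial to mesenchymal transition and fibrillar matrix summed to 12084, 9310, 13653 and 8861 CPM, against 24085, 29392, 28806 and 29143 in progenitors. Of its 16 genes, 11 stood more than 2-fold lower than in progenitors. C3, the central complement component, stood at 7596, 10223, 7922 and 10557 CPM against a progenitor mean of 6119. Cells set aside for 5 or more Cxcl13 UMIs, 44 in all (5, 21, 1 and 17 by library), met the same limits on Upk3b, Msln and keratins. Their means over libraries were lower, with 330 CPM of Upk3b, 286 of Krt19 and 408 of Wt1. Their mean of the acute phase gene Saa3 was 7980 CPM against 2185 in the mesothelial cells. Each library weighs equally in these means, so 1 cell makes up the value of the library labelled CD45+ Tom+.

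**Figure D2:**
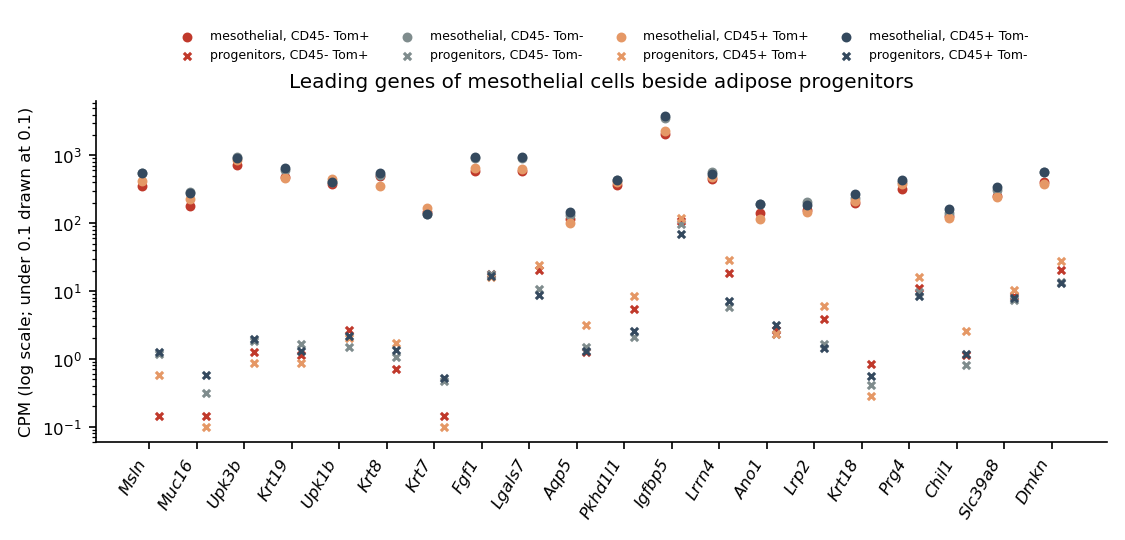
Levels of the 20 leading genes in mesothelial cells and in adipose progenitors of the 4 libraries, in CPM on a log axis. Upk3b lay between 716 and 945 CPM in mesothelial cells and had a mean of 1.48 CPM in progenitors, and circles (mesothelial cells) lie above crosses (progenitors) for each of the 20 genes in each library.

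Promoter sequence was examined for these leading genes because WT1, GATA and TEAD factors are known from mesothelial and coelomic cells. RefSeq windows from 250 bases before to 50 bases after the start (GRCm38.p6) were found for 14 of the 20 genes. GGAATG, the core of the TEAD motif, searched on both strands, occurred in windows of 4 of these 14 genes (28.6%), Igfbp5, Lrrn4, Slc39a8 and Upk3b, against 16.6% of all 27025 genes. AGATAA or TGATAA, the letters of a GATA motif, occurred for 2 of the 14 (14.3%) against 21.0% of all genes, and GCGGGGGCG, shared by WT1 and EGR motifs, for 0 against 3.31%. A match is a description of the letters and not a binding site. The windows of the rule's gene Upk3b and of Lrrn4, which the rule did not use, are given 5′ to 3′ on the gene's strand with the TEAD letters in capitals. That of Upk3b covers chr5:136038246-136038545 on the plus strand and holds the motif as its reverse complement 241 bases before the start, and that of Lrrn4 covers chr2:132880813-132881112 on the minus strand with the motif 196 bases before the start.
Upk3b: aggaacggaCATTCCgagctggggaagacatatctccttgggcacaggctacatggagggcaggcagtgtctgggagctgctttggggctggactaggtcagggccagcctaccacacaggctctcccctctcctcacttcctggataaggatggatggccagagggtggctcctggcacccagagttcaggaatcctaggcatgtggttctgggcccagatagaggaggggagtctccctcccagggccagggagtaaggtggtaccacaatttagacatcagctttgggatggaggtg
Lrrn4: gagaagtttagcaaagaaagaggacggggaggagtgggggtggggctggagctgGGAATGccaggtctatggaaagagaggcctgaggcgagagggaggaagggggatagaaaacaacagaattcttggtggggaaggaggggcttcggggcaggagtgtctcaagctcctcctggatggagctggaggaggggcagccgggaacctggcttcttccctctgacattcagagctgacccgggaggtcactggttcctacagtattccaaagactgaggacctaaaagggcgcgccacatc

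The reporter followed the tdTomato label. tdTomato stood at 859, 6.02, 884 and 6.19 CPM, so both libraries labelled Tom+ lay far above both labelled Tom-, and the log2 ratio of Tom+ over Tom- was 7.16 (95% conditional exact interval 6.83 to 7.5) in each pair of one CD45 label. At least 1 tdTomato UMI was seen in 90.9% and 87.0% of the mesothelial cells labelled Tom+, with a median of 12 and 18 UMIs, and in 12.9% and 15.9% of those labelled Tom-, with a median of 0. After each cell was thinned to 5000 UMIs, these shares were 70.4, 2.94, 77.8 and 2.44% in library order.

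Cdkn2a, which encodes p16 and Arf (4:89274471-89294653), was sparsely counted. It stood at 14.1 CPM (95% exact Poisson interval 10.2 to 19.1, 42 UMIs), 3.25 (2.33 to 4.41, 41 UMIs), 18.6 (12.4 to 26.7, 29 UMIs) and 2.55 (1.76 to 3.58, 33 UMIs). Both libraries labelled Tom+ lay above both labelled Tom-, with log2 ratios of 2.12 (1.46 to 2.78) for the libraries labelled CD45- and 2.86 (2.09 to 3.63) for those labelled CD45+. A Cdkn2a UMI was seen in 18.2, 6.57, 21.7 and 4.88% of the mesothelial cells. The mesothelial cell with the most held 13, 4, 5 and 6 of these UMIs in library order, so single cells weigh on the levels. Among B-lineage cells (at least 3 UMIs of Cd79a and 1 of Ms4a1) the shares were 14, 5.31, 11.0 and 4.56%, at median depths of 42154, 6638, 43571 and 7045 UMIs, and the CPM was 4.79, 5.67, 3.75 and 5.55. After thinning to 5000 UMIs the mesothelial shares were 2.04% (0.248 to 7.18%), 0.980%, 4.44% (0.543 to 15.1%) and 0.978%, and those of B-lineage cells 1.93, 1.16, 1.88 and 0.368%, within the intervals of the mesothelial shares. With no upper gene limit the second of the mesothelial ratios was 0.86. Without barcodes kept in more than 1 library the first of them was 1.53. In adipose progenitors the Cdkn2a log2 ratios were 0.36 (-0.03 to 0.74) and 0.76 (0.34 to 1.16).

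Most of the Cdkn2a UMIs of the Tom+ libraries came from a small set of cells. When the 966 cells were grouped on their own by Leiden clustering, 65 of them formed a sub-cluster led by the matrix gene Tnc, with Itm2a and Adam12. A gene leads by its ratio of CPM over the other mesothelial cells and need not be seen in most cells. Tnc was seen in 21.5% of the 65 cells, Itm2a in 40.0% and Adam12 in 53.8%, against 2.33, 6.99 and 5.77% of the others. It held 27 of 99, 13 of 411, 14 of 46 and 11 of 410 cells in library order. Its cells carried 33 of the 42 and 20 of the 29 Cdkn2a UMIs labelled Tom+, and 2 in each library labelled Tom-. Outside it, Cdkn2a stood at 4.38 CPM (2.0 to 8.31), 3.2, 7.77 (3.55 to 14.7) and 2.45, with log2 ratios of 0.45 and 1.66. These cells met the mesothelial rule with fewer marker UMIs than the rest, a median of 19, 10, 7.5 and 12 of Upk3b and Msln together against 30, 40, 41.5 and 39, and 19 of the 65 were marked as doublets (4, 7, 0 and 8 by library). Values without them are therefore given for each called gene and each gene list of the Tom+ against Tom- comparison.

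The comparison of Tom+ with Tom- asks how mesothelial cells sorted with the reporter differ from those sorted without it. A Tom- label does not show that the p16 promoter of a cell was never active. The comparison covered 3051 genes whose mean reached 50 CPM in each pair, that is, in the 2 libraries of one CD45 label. Of these, 14 stood at least 2-fold higher in Tom+ in both pairs, 0.459% of those tested, and 4 at least 2-fold lower, 0.131%. Taken singly, the pair labelled CD45- gave 18 genes at least 2-fold higher (0.590%) and 4 lower (0.131%), and the pair labelled CD45+ gave 21 (0.688%) and 16 (0.524%). Over all tested genes the log2 ratios had a median of -0.02 (5th to 95th percentile -0.42 to 0.34) for the former pair and 0.00 (-0.53 to 0.49) for the latter. Among the 2456 genes at least as high in mesothelial as in other kept cells, 7 stood higher in both pairs (0.285%) and 4 lower (0.163%). Of the 14 higher genes, 5 are tdTomato and the plasma cell genes Igkc, Ighm, Jchain and Igkv14-126. The summed level of a plasma cell list was 16699, 924, 9842 and 871 CPM in mesothelial cells, and Igkc had log2 ratios of 4.09 and 4.32 in adipose progenitors of the same libraries. Summed B cell markers were 30.9, 5.71, 12.2 and 6.11 CPM and mast cell markers 54.1, 13.6, 74.3 and 23.0 CPM. T cell, neutrophil and Schwann cell markers summed to at most 7.61 CPM in any library, lymphatic endothelial ones to 3.25 to 12.4 CPM and smooth muscle ones to 9.35 to 37.1 CPM. The part of RNA from these cells in the other ratios was not tested.

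The other 9 higher genes encode secreted, matrix or adhesion proteins and a small heat shock protein. Igfbp3, an IGF-binding protein (11:7206086-7213923), stood at 239, 65.1, 246 and 57.1 CPM, with log2 ratios of 1.87 (1.73 to 2.02) and 2.11 (1.92 to 2.29). Both Tom+ libraries lay above both Tom- libraries, whereas the progenitors of the same libraries gave -0.38 and 0.69. Lum, the collagen-binding proteoglycan lumican (10:97565128-97572703), stood at 592, 224, 709 and 194 CPM, and Fn1, fibronectin (1:71585520-71653200), at 1034, 449, 802 and 388 CPM with log2 ratios of 1.20 (1.14 to 1.27) and 1.05 (0.96 to 1.14). The progenitor values were -0.23 and -0.35 for Lum and -0.33 and -0.17 for Fn1, opposite in sign to those of the mesothelial cells. Mmp2, a gelatinase, gave 1.32 and 1.38, and Timp1, an inhibitor of metalloproteinases, gave 1.35 and 1.26. Mdk, the heparin-binding growth factor midkine, gave 1.44 and 1.24. Cryab, a small heat shock protein, gave 1.22 and 1.18, and Wnt5a, a non-canonical Wnt ligand, gave 1.13 and 1.55. Ncam1, an adhesion molecule, gave 2.20 and 2.29, and its progenitor values of 1.16 and 2.09 shared the sign and reached at least 50% of that size.

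These differences were smaller, lost or reversed without the 65 cells of the Tnc sub-cluster. The clustering used the variable genes of these same cells, so smaller ratios without it are in part fixed by that choice. Igfbp3 stood at 705, 28.6, 814 and 169 CPM inside it and at 29.7, 66.3, 48.3 and 54.5 CPM in the other mesothelial cells, where the log2 ratios turned to -1.16 and -0.17. Outside the sub-cluster Fn1 gave 0.11 and -0.27, Timp1 0.00 and -0.06, and Mmp2 0.00 and -0.10. Lum gave 0.06 and 1.12, Mdk 0.17 and 0.35, Cryab -0.19 and 0.07, Wnt5a 0.18 and 0.75, and Ncam1 0.39 and 1.77. In the pair labelled CD45+ the CPM intervals of Tom+ and Tom- outside it overlapped for Igfbp3 (36.5 to 62.8 against 50.5 to 58.8). They also overlapped for Timp1 (141 to 188 against 163 to 177) and Mmp2 (18.9 to 39.0 against 26.7 to 32.8). Those of Fn1 did not overlap (260 to 323 against 339 to 360). Of the 14 higher genes, 4 remained past 2-fold in both pairs without these cells, namely tdTomato (log2 ratios 6.67 and 6.88), Igkc, Ighm and Jchain. Fn1, Lum and Timp1 were high in the sub-cluster in all 4 libraries, Fn1 for example at 2335, 1359, 2275 and 2043 CPM inside it against 451, 417, 290 and 349 outside, where each library lay above its own other cells. Igfbp3 and Tnc differed within it as well, Tnc at 87.0 and 91.8 CPM in its Tom+ cells against 7.15 and 6.75 CPM in its Tom- cells, the latter on 3 and 2 UMIs. Doublet calls marked 7 of its 13 and 8 of its 11 Tom- cells, against 4 of 27 and 0 of 14 of its Tom+ cells. Levels inside it in the Tom- libraries thus come mostly from cells marked as doublets. The summed plasma cell genes of the sub-cluster were 28669, 637, 18355 and 794 CPM, against 11339, 934, 6879 and 873 in the other mesothelial cells. With at least 12 UMIs of Upk3b and Msln, 11 of the 14 higher genes remained past 2-fold in both pairs. Igfbp3 then gave 1.90 and 1.69 and Fn1 1.70 and 1.35, whereas Mmp2 gave 1.02 and 0.66 and Cryab 1.21 and 0.77. Without marked doublets Igfbp3 gave 1.91 and 2.09. Without barcodes listed in several libraries Igfbp3 gave 0.93 and 2.09, Fn1 2.09 and 1.39, Mmp2 1.37 and -0.35, and Cryab 1.26 and 0.10. In summed counts a change in the number of cells of a kind cannot be told apart from a change within cells, which is why both are given here.

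**Figure D3:**
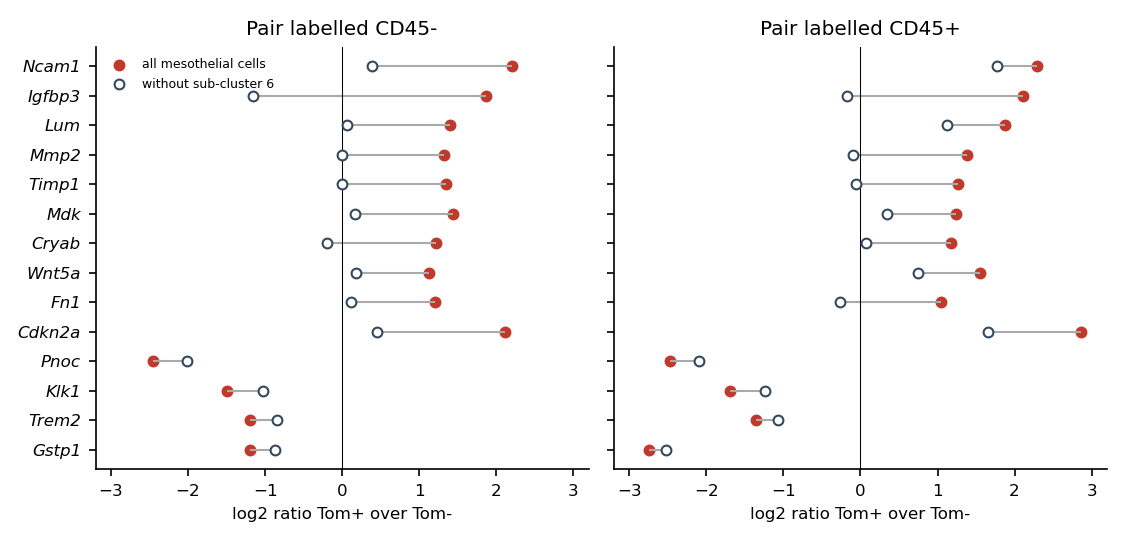
Log2 ratios of Tom+ over Tom- for Cdkn2a and the named genes at least 2-fold apart in both pairs, over all mesothelial cells and without the 65 cells of the Tnc sub-cluster. Igfbp3 went from 1.87 and 2.11 to -1.16 and -0.17, while Pnoc went from -2.45 and -2.47 to -2.01 and -2.09.

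The 4 lower genes are Pnoc, Klk1, Trem2 and Gstp1. Pnoc, the precursor of the neuropeptide nociceptin (14:65400673-65425472), stood at 16.5, 90.1, 24.3 and 135 CPM, with log2 ratios of -2.45 (-2.89 to -2.04) and -2.47 (-2.98 to -2.01), and it was almost silent in progenitors with a mean of 0.596 CPM. Both libraries labelled Tom+ lay below both labelled Tom-. Without the Tnc sub-cluster its ratios were -2.01 and -2.09 among the other mesothelial cells, and without barcodes listed in several libraries they were -1.73 and -1.20. Klk1, a kallikrein protease gene (7:44225360-44229618), stood at 55.1, 156, 50.6 and 164 CPM, with -1.03 and -1.24 without the sub-cluster. It was seen in 12.1 to 21.0% of the cells, and 81.0 to 90.5% of its UMIs came from the 5% of cells with the most, so a few cells set its level.

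Trem2, a lipid-sensing receptor best known from macrophages (17:48346401-48354147), stood at 267, 613, 240 and 612 CPM in mesothelial cells and had a mean of 22 CPM in progenitors. Its log2 ratios were -1.20 (-1.30 to -1.09) and -1.35 (-1.51 to -1.20), or -0.84 and -1.07 without the Tnc sub-cluster and -0.37 and -0.79 without barcodes listed in several libraries. It was seen in 82.8, 89.3, 87.0 and 91.0% of the mesothelial cells, while the summed level of a macrophage marker list was 250, 122, 130 and 117 CPM, lower than that of Trem2 alone in each library. Its level in all other kept cells, macrophages among them, was 223 CPM. Gstp1, a glutathione transferase (19:4035407-4037985), stood at 72.3, 165, 50.6 and 341 CPM, with ratios of -1.19 and -2.75, or -0.87 and -2.53 without the Tnc sub-cluster, and its progenitor ratios of -0.78 and -1.47 shared the sign and reached at least 50% of that size. Reads of Gstp1 may be shared with its near-identical paralogs, which makes its value uncertain.

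**Figure D4:**
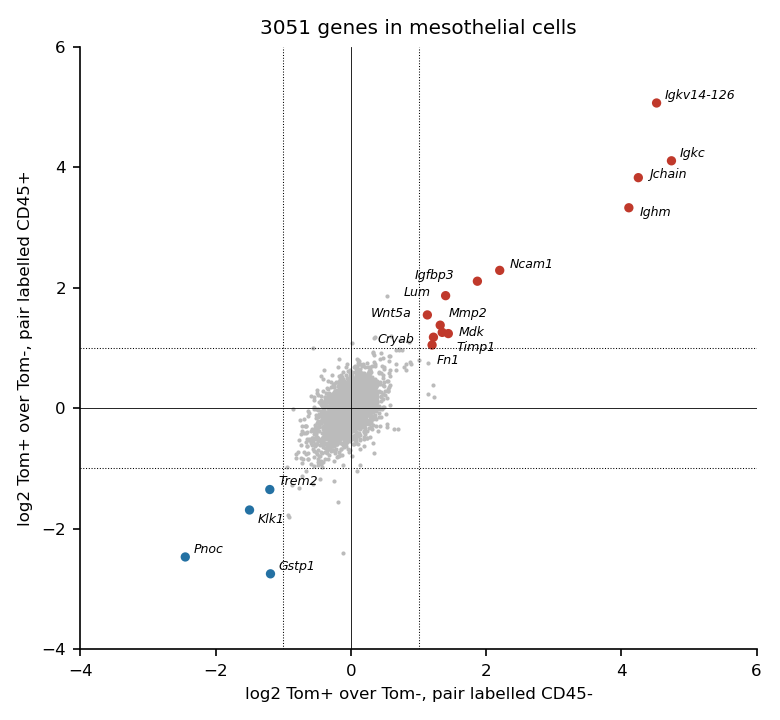
Log2 ratio of Tom+ over Tom- in the pair labelled CD45- (horizontal) against that in the pair labelled CD45+ (vertical) for the tested genes in mesothelial cells, with the genes at least 2-fold apart in both pairs named. The median gene lay at -0.02 and 0.00, Igfbp3 at 1.87 and 2.11, Pnoc at -2.45 and -2.47, and tdTomato, at 7.16 on both axes, lies beyond the plotted range.

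Most marker and surface genes of mesothelium lay slightly under 0 in Tom+, with no gene called, and part of this was lost without the Tnc sub-cluster. Of 14 markers beside the rule, 11 lay under 0 in both pairs and 1 over 0, with medians of -0.23 and -0.25, while 34.8% of all tested genes lay under 0 in both pairs and 30.4% over 0. Without the sub-cluster 8 lay under 0 and 1 over 0, with medians of -0.20 and -0.09. Muc16 had ratios of -0.72 (-0.85 to -0.59) and -0.29 (-0.46 to -0.13), and -0.39 and 0.04 without the sub-cluster. Of 7 tested transcription factors, 5 lay under 0 and 2 over 0, and without the sub-cluster 2 lay under 0 and 1 over 0. Among these, Wt1 gave -0.21 and -0.26, and Osr1, a factor of the coelomic mesoderm, gave -0.71 and -0.84 (-0.33 and -0.47 without the sub-cluster).

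The junction and surface lists did not keep their direction. For comparison, 34.8% of all tested genes lay under 0 in both pairs and 30.4% over 0. Among 9 tested genes of tight junctions and the apical membrane, 6 lay under 0 and 1 over 0, but without the sub-cluster 3 lay under 0 and 4 over 0, with medians of 0.03 and -0.03. Podxl, an apical sialomucin, gave -0.43 and -0.97 (-0.23 and -0.70 without the sub-cluster), and Ezr, which ties membrane proteins to actin, gave 0.20 and 0.54. Among 7 tested genes of glycocalyx and lubrication, 5 lay under 0 and 1 over 0, but without the sub-cluster 0 lay under 0 and 2 over 0. Prg4 turned from -0.33 and -0.17 to 0.12 and 0.22, and the hyaluronan receptor gene Cd44 went from 0.67 and 0.74 to 0.02 and 0.42. Of the 4 tested genes of keratins, desmosomes and cadherins, 3 lay over 0 and 0 under 0, with medians of 0.09 and 0.16, or -0.05 and 0.25 without the sub-cluster. The cadherin gene Cdh3 gave 0.82 and 0.64 (0.15 and 0.44 without it).

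Genes of innate defence and of clotting on the serosal surface lay mostly under 0, by smaller amounts without the Tnc sub-cluster. Of 10 tested complement genes 7 lay under 0 and 2 over 0, with medians of -0.25 and -0.39, and without the sub-cluster 6 lay under 0 and 3 over 0, with medians of -0.05 and -0.08. C3 gave -0.43 and -0.41 (-0.15 and -0.09 without the sub-cluster), the alternative pathway protease gene Cfb gave -0.72 and -0.91 (-0.34 and -0.56), and the complement inhibitor gene Cd55 gave 0.71 and 0.96 (0.20 and 0.86). Of 8 tested genes of fibrinolysis and coagulation 7 lay under 0, or 6 without the sub-cluster, with thrombomodulin, Thbd, at -0.52 and -0.31 (-0.21 and -0.14). Of 9 tested interferon-induced genes 8 lay under 0, or 6 without it. Rsad2 gave -0.93 and -1.77 (-0.48 and -1.45), and the list's medians were -0.24 and -0.79 (-0.05 and -0.41). None of these 3 lists held a call in both pairs, and 34.8% of all tested genes lay under 0 in both pairs and 30.4% over 0.

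Chemokines did not share 1 direction. Of 10 tested genes 6 lay over 0 in both pairs and 4 under 0, beside 30.4 and 34.8% of all tested genes. Without the Tnc sub-cluster 3 lay over 0 and 2 under 0. Ccl2, which attracts monocytes, stood at 648, 457, 720 and 590 CPM with ratios of 0.50 and 0.29, which became 0.40 and -0.32. The neutrophil chemokine gene Cxcl2 gave 1.22 and 0.38, which became 1.03 and -0.51. Il6 went the other way, at 62.9, 115, 46.1 and 111 CPM with ratios of -0.87 and -1.27, or -0.46 and -0.91. Saa3, an acute phase protein, gave 0.09 in the pair labelled CD45- and -1.04 in the other, or 0.30 and -0.65.

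Matrix genes gave the most calls of any list. In the list of mesothelial to mesenchymal transition and fibrillar matrix, 3 of 11 tested genes were called higher, Fn1, Mmp2 and Timp1. In both pairs 9 of the 11 lay over 0 and 0 under 0, with medians of 0.31 and 0.71. Of all tested genes 0.459% were called higher, 30.4% lay over 0 in both pairs and 34.8% under 0. Without the Tnc sub-cluster the medians were -0.11 and 0.03, with 1 gene over 0 and 1 under 0 in both pairs. Col1a1, a chain of type I collagen, stood at 2058, 1532, 2523 and 1439 CPM with ratios of 0.43 and 0.81 (-0.15 and 0.03 without the sub-cluster), and the membrane protease gene Mmp14 gave 0.72 and 1.14 (0.24 and 0.71). Of 11 basement membrane genes 2 lay over 0 and 6 under 0, or 0 and 4 without the sub-cluster. Of 8 tested genes of TGF-beta, activin and BMP signalling 4 lay over 0 and 4 under 0, or 1 and 4 without it. The receptor gene Tgfbr2 gave -0.25 and -0.18 (-0.07 and -0.07), and the inhibitor gene Smad7 gave 0.18 and 0.74 (-0.23 and 0.56).

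With all cells, Igfbp3 was the only call among 9 tested growth factors and receptors, beside 0.459% of all tested genes called higher. Of all tested genes 34.8% lay under 0 in both pairs and 30.4% over 0. The other IGF-binding proteins lay under 0, Igfbp4 at -0.45 and -0.89, Igfbp5 at -0.79 and -0.73 and Igfbp6 at -0.41 and -0.55. Without the Tnc sub-cluster Igfbp3 lay under 0 as well, beside -0.16 and -0.60 for Igfbp4, -0.43 and -0.37 for Igfbp5 and -0.14 and -0.39 for Igfbp6, and 7 of the 9 genes lay under 0 in both pairs. Igfbp5 stood at 2040, 3535, 2265 and 3766 CPM, both Tom+ libraries below both Tom-. In the Wnt list of 6 tested genes Wnt5a was the only call, 2 lay over 0 and 4 under 0, or 1 and 3 without the sub-cluster. Wnt4 turned from 0.23 and 0.22 to -0.31 and -0.21, and Rspo1, a secreted Wnt agonist, went from -0.46 and -0.61 to -0.25 and -0.40.

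Genes of arrest did not all keep their side of 0. Of 6 tested genes of cell cycle arrest and the p53 response none was called. In both pairs 4 lay over 0, also without the Tnc sub-cluster, beside 30.4% of all tested genes with all cells. Cdkn1a, which encodes p21, stood at 162, 147, 256 and 154 CPM (0.14 and 0.74, or 0.38 and 0.93 without the sub-cluster). After thinning to 5000 UMIs its ratios were -0.23 and 0.67. Trp53inp1 gave 0.57 and 0.58 (0.66 and 0.60). Cdkn2b, under 50 CPM and so not among the tested genes, rested on 30 and 17 UMIs in the Tom+ libraries. Its ratios went from 0.10 and 0.33 to -0.97 and -0.47 without the sub-cluster. They were 1.06 and 2.60 after thinning, and 1.18 and 1.12 with each cell weighted equally. Of 5 tested prostaglandin genes none was called, and Ptgs2, the inducible cyclooxygenase, stood at 879, 912, 860 and 838 CPM. Among 16 immediate early and heat shock genes, a sign of cell handling, none was called and the medians were -0.14 and -0.13, or -0.07 and 0.00 without the sub-cluster.

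Some genes under the 50 CPM limit stood far apart, with ratios that moved without the Tnc sub-cluster. Dsg2, a desmosomal cadherin, stood at 37.3, 4.91, 87.1 and 4.72 CPM (2.92 and 4.21 on the log2 scale), and at 3.41, 3.53, 33.7 and 3.48 CPM outside the sub-cluster, where only the library labelled CD45+ Tom+ stood apart. Hpgd, which degrades prostaglandins, stood at 42.0, 6.82, 75.6 and 6.80 CPM with ratios of 2.62 and 3.47, which became -1.11 and 3.09. Tagln, a smooth muscle and myofibroblast gene, gave 2.99 and 2.01, which became -0.06 and 0.45. Igfbp2 gave -1.46 and -1.69, which became -1.04 and -1.34.

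Variation within the library labelled CD45- Tom- was led by nuclear or unnamed RNAs and by a few secreted proteins. In 408 cells of the library labelled CD45- Tom-, each thinned to 5000 UMIs, the variance over the mean was 43.8 for Slpi, a secreted protease inhibitor, 37.0 for Saa3, 26.4 for Igfbp5 and 25.1 for Klk1, against a median of 1.11 over genes. Only the unnamed transcript Gm42418 (73.7) and the nuclear RNA Malat1 (68.1) were above these. In the libraries labelled Tom+, Ighm (93.4 and 68.6) was above Slpi (30.7 and 31.6) and Saa3 (34.4 and 22.3). In the library labelled CD45+ Tom- Saa3 had 65.6, above Malat1 (56.8) and Gm42418 (54.4), and Ighm had 1.23.

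The cells formed 7 sub-clusters, whose leading genes are a description because the clustering used them. Some were seen in few cells, S100g in 9.94% of sub-cluster 3, Csf3 in 16.2% and Calca in 21.1% of sub-cluster 2, and Nov in 22.2% of sub-cluster 5. Others were widespread, such as Trem2 in 97.7% of sub-cluster 3. Sub-cluster 1 (248 cells) was led by Ces1d, a carboxylesterase, and sub-cluster 2 (185 cells) by Csf3 and Calca, with 6261 CPM of Saa3 over all its cells. Sub-cluster 3 (171 cells) was led by S100g, Klk1 and Trem2 and had 1007 CPM of Msln and 1432 CPM of Trem2. Sub-cluster 4 (154 cells) was led by Aqp2, Faim2 and Adam23, with Pnoc among its first 10 genes. Sub-cluster 5 (108 cells) was led by Nov, Cxcl5 and Gatm, with 1521 CPM of Fn1, 157 CPM of Msln and 11.4 CPM of Cdkn2a. Sub-cluster 6 (65 cells) is the one led by Tnc, with 2080 CPM of Fn1, 173 CPM of Msln and 28.0 CPM of Cdkn2a, and sub-cluster 7 (35 cells) was led by the cell division genes Pclaf, Hmmr and Mki67 and had 18.2 CPM of Cdkn2a.

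Msln, Muc16 and Trem2 were thus lowest in sub-clusters 5 and 6, where Fn1 was highest, and Wt1 varied little, from 381 to 575 CPM. Cdkn2a stood at 0.186 to 0.521 CPM in sub-clusters 1 to 3 and at 2.98 in sub-cluster 4. Each of sub-clusters 1 to 5 and 7 had most of its cells in the libraries labelled Tom-, as the whole set had. Sub-cluster 3 held 11.1, 17.3, 10.9 and 20.5% of the cells in library order. Sub-cluster 4 held 9.09, 15.8, 6.52 and 18.8%, and sub-cluster 2 held 18.2, 19.2, 19.6 and 19.3%. The intervals of sub-clusters 3 and 4 overlapped between Tom+ and Tom- in each pair. The part of these shares in the ratios of Klk1, Trem2 and Pnoc was not tested. Sub-cluster 6 held 27.3 and 30.4% of the Tom+ cells and 3.16 and 2.68% of the Tom- cells, and because its leading genes differ between these libraries its size was not read as a difference in cell numbers.

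**Figure D5:**
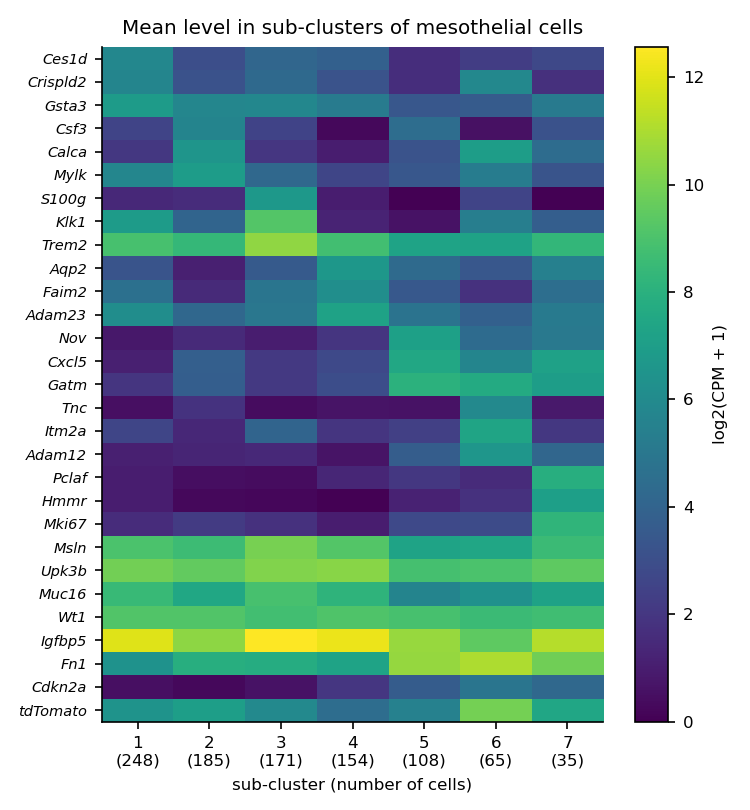
Heat map of the leading genes of the 7 sub-clusters (columns, with their numbers of cells) and of 8 further genes, coloured by log2(CPM + 1) over all cells of a sub-cluster. Fn1 was at 1521 and 2080 CPM in sub-clusters 5 and 6, where Msln was at 157 and 173 CPM, and Mki67 was at 294 CPM in sub-cluster 7.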

How the data were processed

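Gonadal adipose stromal vascular cells were sorted into 4 libraries, made with the 10x Genomics Chromium 3′ kit. Per the study's methods the authors aligned reads to mm10 with Cell Ranger 3.0.2, and they deposited UMI counts per gene and barcode, without normalization, for 31054 features, tdTomato among them. The rule for kept and mesothelial cells is given at the opening. The members and gene lists were chosen with earlier results of these data known.

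Counts were summed over the mesothelial cells of a library and divided by their total (CPM). Each group is 1 library and no test was run. Each level has an exact Poisson interval, each share an exact binomial interval and each ratio a conditional exact interval (scipy 1.17.1), which cover counting error only since UMIs of 1 library share their mice and preparation. Genes were called at a log2 ratio of at least 1 (or at most -1) in both pairs, with a mean of at least 50 CPM. The ratio script was tested on simulated data. The genes named are those of the lists, the 20 leading genes over other cells (at least 100 CPM in each library, 1 CPM added), the called genes apart from immunoglobulins, mitochondrial, ribosomal and predicted genes and tdTomato, the 10 most variable genes, and 3 leading genes per sub-cluster. Genes under 50 CPM that are named with values are list members. Doublets were scored with Scrublet in scanpy 1.11.5 (0.8% expected per 1000 barcodes) and kept. Sub-clusters came from Leiden clustering (leidenalg 0.10.2) of the mesothelial cells. Shares of cells with a UMI were also given after thinning to 5000 UMIs. Gene positions come from the GENCODE annotation and promoters from RefSeq, both on GRCm38. Alternatives varied the marker limits, cell filters, doublets, scaling, cell weighting and low-value filter. Leaving out the Tnc sub-cluster, shared barcodes or the upper gene limit was chosen after seeing the data.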

Additional observations from a re-analysis of the deposited data

Results flagged for a closer look

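Fabp4, a fatty acid carrier known from adipocytes and endothelium, lay in opposite directions in the pairs. Its level in mesothelial cells was 79.7 and 118 CPM in the libraries labelled CD45- (Tom+, then Tom-) and 287 and 144 CPM in those labelled CD45+. The log2 ratio of Tom+ over Tom- was -0.56 (-0.77 to -0.36) for the former pair and 1.0 (0.85 to 1.15) for the latter. With no upper gene limit both lay over 0, at 1.29 and 0.52. The difference between the pairs was not tested. Summed blood endothelial markers were 95.1, 107, 133 and 126 CPM and summed adipocyte markers 0, 1.19, 1.28 and 0.851 CPM in these cells, and their part in this value was not tested.

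Barcodes that met the marker conditions with 7000 genes or more lay outside the set described. There were 44, 87, 17 and 129 of them in the same order.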

How the results depend on the processing

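With at least 500 genes and up to 20% mitochondrial UMIs, the shares of mesothelial cells were 1.48, 6.54, 1.53 and 5.91% in the libraries labelled CD45- (Tom+, then Tom-) and CD45+ (likewise). Without an upper gene limit they were 3.27, 11.7 and 10.4% in the first, second and last library, and without barcodes listed in several libraries 5.04% in both labelled Tom-. Both Tom+ libraries stayed below both Tom- libraries under these settings. The counts of genes at least 2-fold higher and lower in Tom+ were 4 and 2 without the Tnc sub-cluster, 8 and 1 without shared barcodes (7 and 1 of them also in the main counts), 42 and 10 of 8228 genes with at least 10 CPM, and 341 and 89 of 13159 with no filter. Among genes at least as high in mesothelial as in other cells 7 were higher. The tdTomato log2 ratio was 6.67 (Tnc sub-cluster left out) and 7.51 (shared barcodes left out) in the pair labelled CD45-, and 6.57 (equal cell weights) and 7.56 (thinned) in the pair labelled CD45+. That of Cdkn2a was 0.45 in the pair labelled CD45- and 1.66 in the pair labelled CD45+ without the Tnc sub-cluster, and 3.84 (shared barcodes left out) and 0.86 (no upper gene limit) in the latter. Among the called ratios, those of Igfbp3 changed sign without the Tnc sub-cluster (-1.16 and -0.17). So did those of Cryab in the pair labelled CD45- (-0.19), and of Mmp2 (-0.10), Timp1 (-0.06) and Fn1 (-0.27) in the pair labelled CD45+. Mmp2 there was also -0.35 without shared barcodes. The causes were not tested. Clustering gave 4 and 13 sub-clusters at resolutions of 0.3 and 1. Of 6575 values of 352 named genes under alternatives, 4999 lay within the counting interval of the reported value, 1569 outside it, and 7 called ones changed sign. Counting uncalled ratios too, 137 of 663 changed sign without the Tnc sub-cluster, 120 of 654 without shared barcodes, and 5 to 94 under the other settings. No paired analysis was possible because the labels give no replicate numbers that pair samples and each group is 1 library. Cdkn2a rests on 29 to 42 UMIs per library.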

Other observations

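Further gene groups of the mesothelial cells held no gene called in both pairs. Over all tested genes 34.8% lay under 0 in both pairs and 30.4% over 0. Of 6 tested genes of retinoid synthesis and handling 4 lay under 0 in both pairs and 0 over 0, or 3 and 1 without the Tnc sub-cluster, with Aldh1a1, a retinaldehyde dehydrogenase, at 515, 605, 377 and 629 CPM (log2 ratios of Tom+ over Tom- of -0.23 and -0.74) and Aldh1a2, another one, at 210, 200, 209 and 212 CPM (0.07 and -0.02). Of 4 tested genes of water and ion transport 1 lay over 0 and 2 under 0, also without the sub-cluster, with the bicarbonate transporter gene Slc4a4 at 190, 195, 204 and 203 CPM. Antigen presentation genes had medians of -0.05 and -0.38, 7 of 10 under 0 in both pairs and 0 over 0, which became 0.01 and -0.15 with 5 under 0 and 3 over 0 without the sub-cluster. The class II chaperone gene Cd74 stood at 473, 407, 330 and 388 CPM. Of 11 tested antioxidant and detoxification genes 5 lay under 0 and 1 over 0, also without the sub-cluster, with Sod3, the extracellular superoxide dismutase, at -0.61 and -0.53 (-0.16 and -0.17 without it) and Gstm1, a glutathione transferase, at -0.55 and -0.96 (-0.17 and -0.58).

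Proliferation genes were mostly under 50 CPM and differed between libraries. Mki67 stood at 6.39, 12.4, 67.9 and 13.8 CPM and Top2a at 8.74, 16.5, 53.2 and 13.7 CPM, so the library labelled CD45+ Tom+, with 46 mesothelial cells of which 3 lay in the sub-cluster led by cell division genes, stood apart.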
